A study of Mus musculus with 36 samples.

Results

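Cytosolic ribosomal protein genes encode the protein parts of the 60S and 40S ribosomal subunits, and they were followed here in mouse liver as 1 set across 3 diet groups. A probe was taken as a member when the array design gave it a gene name beginning with Rpl or Rps followed by a number, or the name Rplp0, Rplp1, Rplp2 or Rpsa. The array carried 135 such probes for 81 genes. The processed table held 127 of them for 80 genes, out of 21781 probes in all, and Rpl3l was the 1 gene without any probe left. The 8 absent probes, 1 each of Rpl22l1, Rpl35a, Rpl37, Rpl3l, Rps15a, Rps19, Rps2 and Rps6, had average signals under 2 times background. Each value below is 1 of these 127 probes or a summary over them, and probes of the same gene or family are not independent measurements.

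Liver RNA came from 36 adult male C57BL/6J mice (the labels' name, while the methods give the substrain C57BL/6JOlaHsd), 12 in each group, and all of them ate a mild-high-fat diet with 30 energy percent fat. Mice of the t=0 group were killed at the end of an adaptation period of 3 weeks on that diet as the labels give it, while the methods give a shorter adaptation. The HF group stayed on the same diet for a further 12 weeks, and the HF-Q group received it with 0.33% (w/w) quercetin, a plant flavonol, for 12 weeks. All mice had been without food for at least 2 h. HF against t=0 therefore compares mice that differ by 12 weeks of feeding and by 12 weeks of age, which cannot be told apart, and only HF-Q against HF isolates the supplement. Each mouse was hybridised on its own 2-colour array, with its RNA in Cy5 against a Cy3 pool of all mice. A value is the log2 of the Cy5 over Cy3 signal plus a constant for the spot, so differences between groups can be read directly, whereas the level of a probe also carries the labelling and binding of that probe. Whole liver was used, so fewer cells of a type and less RNA per cell cannot be told apart.

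A pair of arrays stood apart. HF-Q replicate 2 was bright throughout. Its share of spots that passed the scanner software's background test was 96.7% for Cy5 and 87.9% for Cy3, and the other 35 arrays had 56.4% to 67.4% and 48.5% to 57.0%. HF replicate 5 had a mean log2 value of 19.7 over the 4 pancreas markers measured (Cela1, Cpa1, Pnlip and Cel, digestive enzymes of the exocrine pancreas), whereas the other 35 arrays lay between 8.64 and 9.58. Its ribosomal protein probes deviated by 0.06 from the mean array, close to the middle of its group, though its bright members stood 0.22 above its other bright probes. For the ribosomal protein probes as a set, results with and without these arrays stand side by side below. The livers otherwise matched their label, since the mean over 6 hepatocyte markers had medians of 15.5 in t=0, 15.4 in HF and 15.4 in HF-Q, and none of the 4 adipose markers on the array is in the processed table. Of the 6, Cps1, a urea cycle enzyme, fell by 0.32 in HF against t=0. In HF-Q against t=0, 2 of the 6 were called lower, the lowest at -0.45, and 0 were called higher. Of all probes, 5.3% were called lower and 6.62% higher in that comparison.

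Ribosomal proteins are among the most abundant products of any growing or secreting cell, and the cell makes them in matched amounts because they are built into ribosomes together. Their messenger RNAs begin with a C followed by a run of pyrimidines, the 5′ terminal oligopyrimidine (TOP) tract, through which nutrient and growth signals acting on mTOR control their translation. In liver, ribosome content is known to follow feeding and growth.

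The start regions of 6 genes are shown because they do or do not have a pyrimidine run over the annotated start, and because they differ in how their messenger RNA behaved below. Each line runs from 60 bases before the annotated transcription start to 20 bases from it, 5′ to 3′ on the coding strand, and capitals mark a run of 8 or more pyrimidines that covers the start. The Rpl22l1 line has no such run over its annotated start, though pyrimidines follow it closely. The sequences are from RefSeq, mouse build GRCm38.p6.
Rpl38 (chr11:114668520-114668599, plus strand): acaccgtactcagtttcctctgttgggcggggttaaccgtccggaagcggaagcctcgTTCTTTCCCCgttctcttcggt
Rplp2 (chr7:141447591-141447670, plus strand): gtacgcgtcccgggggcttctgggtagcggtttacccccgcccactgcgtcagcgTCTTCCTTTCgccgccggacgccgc
Rps18 (chr17:33955646-33955725, minus strand): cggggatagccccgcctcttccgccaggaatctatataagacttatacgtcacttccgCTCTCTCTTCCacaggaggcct
Rpl27a (chr7:109519135-109519214, plus strand): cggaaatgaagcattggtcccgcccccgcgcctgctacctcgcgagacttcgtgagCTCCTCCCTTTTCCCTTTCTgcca
Rps6 (chr4:86857348-86857427, minus strand): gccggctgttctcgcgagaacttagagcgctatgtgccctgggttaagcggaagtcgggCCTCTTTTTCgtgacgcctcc
Rpl22l1 (chr3:28805448-28805527, plus strand): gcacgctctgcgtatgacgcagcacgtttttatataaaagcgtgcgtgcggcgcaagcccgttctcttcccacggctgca

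Promoters were given for 59 of the 80 genes, as 70 windows of 300 bases. A run of at least 8 pyrimidines over the start was present in 17 of these 70 windows (24.3%), against 3.86% of all 32851 promoters of the same length. The letters CCGGAAG, the core bound by ETS family factors, were found on either strand in 35.7% of the member windows and in 8.86% of all. AAGATGGC, the core bound by YY1, was found in 11.4% and 2.75%, and its first 3 letters can overlap the end of the ETS core. The TATA box core, TATAAA, was found in 10% and 13.6%. The annotated start of a gene can lie some bases from the one used in liver, so a window without the run says only that these letters do not cover the annotated base.

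Quercetin was not accompanied by a called change in any ribosomal protein probe. In HF-Q against HF, 0 of 127 probes passed an adjusted p of 0.05 by limma, where 2.36% of all 21781 probes did (1.49% higher, 0.863% lower). At an unadjusted p under 0.05 there were 6 members, 4 lower and 2 higher in HF-Q, against 15.4% of all probes. The median difference of the members was -0.06 on the log2 scale (0.958-fold), 112 of 127 lay below 0, and single probes ran from -0.34 to 0.26. The median over all probes was 0.01. The spread of the member median between mice had an SD of 0.154, larger than the difference. Such an SD describes single mice and does not measure the precision of a difference between group means. It was 0.138 in HF against t=0 and 0.110 in HF-Q against t=0. Without HF-Q replicate 2 the median was -0.05 and without HF replicate 5 it was -0.07, with 0 probes called in both. The t-test on the same values, after Benjamini-Hochberg adjustment, also gave 0. The median was -0.03 without HF replicate 2 and -0.04 without HF replicate 1.

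Ribosomal protein messenger RNA was higher after 12 weeks of feeding than at its start. In HF against t=0, 51 probes rose and 3 fell at an adjusted p under 0.05 by limma, together 54 of 127, where 21.3% of all probes were called, 10.9% higher and 10.4% lower. The median difference was 0.17 (1.12-fold), 112 of 127 probes lay above 0, and the middle 50% ran from 0.08 to 0.24. The median over all probes was 0.00. Counting the brightest probe of each gene, 42 of 80 genes rose, 0 fell, and 77 lay above 0. Both subunits took part, with a median of 0.16 over 75 probes of the large subunit and 0.19 over 52 of the small subunit. Without HF replicate 5, 52 probes were called and the median was 0.18. The array that mattered most was HF replicate 2, without which 39 probes were called and the median was 0.14.

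The same t=0 mice served for HF-Q, so the comparison that follows is not independent of the last. In HF-Q against t=0, 25 probes rose and 5 fell by limma at an adjusted p under 0.05, 30 of 127, against 11.9% of all probes (6.62% higher, 5.3% lower). The median difference was 0.11 (1.08-fold) and 104 of 127 lay above 0. Leaving out HF-Q replicate 2 gave 41 called probes and a median of 0.12, and leaving out HF-Q replicate 8 gave 18 called probes. The count was 1 with normexp and median centring, 1 with normexp, loess and scale normalisation, 7 with Cy5 alone, and 17 with slide as a fixed term or with all arrays in one fit. The calls over all 21781 probes changed as well, from 2596 as reported to 396, 664, 1178, 2420 and 2558 under these settings in the same order.

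Single mice overlapped between the groups. The median deviation of the 127 probes from the mean array had a lowest, median and highest value of -0.22, -0.10 and 0.05 in the 12 t=0 mice. In the HF mice these values were -0.16, 0.06 and 0.42, and in the HF-Q mice -0.12, -0.02 and 0.29. The mean ± SD was -0.09 ± 0.09 in t=0, 0.08 ± 0.17 in HF and 0.02 ± 0.13 in HF-Q (n = 12 each). A number of HF and HF-Q mice reached above every t=0 mouse and others lay among them, and the HF-Q mice all lay within the range of the HF mice. HF-Q replicate 2 was the lowest of its group.

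**Figure D1:**
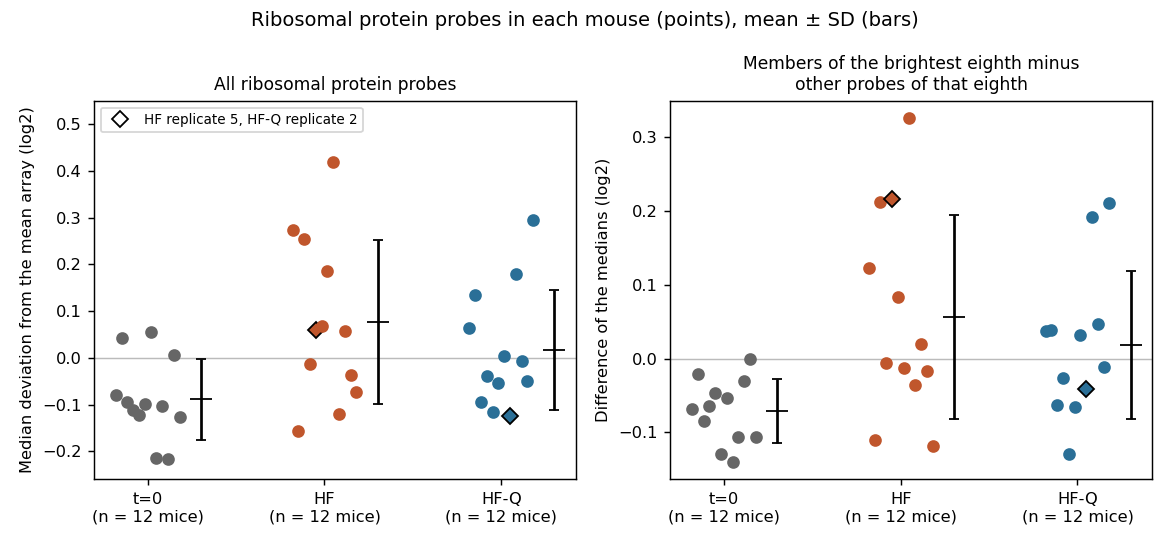
Left, the median deviation from the mean array (log2) of the 127 ribosomal protein probes in each mouse. Right, the same median over the 103 brightest members minus that over the 2620 other probes in the brightest eighth (log2), within which the members are brighter. Points are mice, bars are mean ± SD over 12 mice, and diamonds are HF replicate 5 and HF-Q replicate 2. The t=0 mice lie between -0.22 and 0.05 on the left, and the highest HF mouse is at 0.42.

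The stalk of the large subunit, which recruits the elongation factors, is formed by Rplp0 and the pair Rplp1 and Rplp2. The Rplp2 probe ran from 16.74 to 17.33 in t=0 (median 17.00), from 17.15 to 17.65 in HF (median 17.30) and from 16.87 to 17.51 in HF-Q (median 17.23). All 12 HF mice were above the t=0 median, though 7 of them lay within the t=0 range. Rplp2 rose by 0.35 ± 0.07 (SE) in HF against t=0, at an adjusted p of 0.00106 by limma, and the 0.22 in HF-Q against t=0 had an adjusted p of 0.0563. For Rplp1 the values were 17.78 to 18.27 (median 18.01) in t=0, 17.57 to 18.49 (18.07) in HF and 17.81 to 18.10 (17.99) in HF-Q. Its HF mice spread to both sides of the t=0 mice, and the difference of 0.05 had an adjusted p of 0.701. Rplp0, the anchor of the stalk and a common reference gene, differed by 0.08 in HF against t=0 (limma adjusted p = 0.256), as a mean over 10 spots.

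Of the small subunit, Rps14, a protein of the platform near the messenger RNA exit, ran from 16.94 to 17.36 in t=0 (median 17.09), from 17.15 to 17.99 in HF (17.48) and from 17.16 to 17.95 in HF-Q (17.51). Of the HF mice 9 and of the HF-Q mice 7 lay above the highest t=0 mouse, and HF and HF-Q covered nearly the same range. Rps14 rose by 0.40 ± 0.08 in HF against t=0 (limma adjusted p = 0.0016) and by 0.36 ± 0.08 in HF-Q against t=0 (limma adjusted p = 0.00317). The brightness-corrected differences, introduced below, were 0.33 for both.

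Rps18, which sits at the head of the small subunit, was read by 3 probes. The second brightest of them had values of 16.15 to 16.56 (median 16.33) in t=0, 16.37 to 17.12 (16.63) in HF and 16.36 to 16.88 (16.65) in HF-Q. It rose by 0.37 ± 0.08 in HF and by 0.34 ± 0.06 in HF-Q against t=0, with limma adjusted p-values of 0.00176 and 0.00122, the second being the lowest among the members in that comparison. The brightest probe rose by 0.32 in HF. The dimmest, at 2.34 times background in Cy5, fell by 0.22 in HF against t=0 (limma adjusted p = 0.0121), so probes of the same gene disagreed in sign.

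Rps19, a protein needed for maturation of the small subunit RNA and mutated in Diamond-Blackfan anaemia, rose in HF against t=0 on both of its probes, by 0.23 ± 0.07 and 0.39 ± 0.11 (limma adjusted p = 0.0164 and 0.0169). The dimmer of the pair ran from 10.64 to 11.03 in t=0, from 10.69 to 12.10 in HF and from 10.88 to 11.48 in HF-Q, and 10 of 12 HF-Q mice lay above every t=0 mouse. Rps3, at the messenger RNA entry, rose by 0.25 ± 0.06 on its bright probe (limma adjusted p = 0.00586) and differed by 0.20 on the other (adjusted p = 0.0882). Rpsa, which also serves as a laminin receptor precursor, differed by 0.20 on its bright probe (limma adjusted p = 0.0671) and by -0.09 on its dim one.

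Rps6, the substrate of S6 kinase and a usual readout of mTOR signalling, gave a contrasting record. Its values were 14.15 to 15.04 (median 14.75) in t=0, 14.17 to 15.27 (14.83) in HF and 14.22 to 15.29 (14.60) in HF-Q. The groups overlapped over most of their ranges, and the difference of 0.01 ± 0.12 in HF against t=0 had an adjusted p of 0.947 by limma. The measurement was of messenger RNA and holds nothing on the phosphorylation of the protein.

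In the large subunit, Rpl5 and Rpl11, which together with 5S ribosomal RNA bind Mdm2 when assembly fails, rose on the probe of Rpl5 and on 1 of the 2 probes of Rpl11. Rpl5 ran from 16.51 to 16.97 in t=0 (median 16.72), from 16.71 to 17.26 in HF (16.99) and from 16.69 to 17.27 in HF-Q (16.92). The difference in HF against t=0 was 0.26 ± 0.06 for Rpl5 and 0.22 ± 0.07 for the bright probe of Rpl11, with limma adjusted p-values of 0.00333 and 0.031. In HF-Q against t=0 they rose by 0.22 and 0.16 (limma adjusted p = 0.0341 and 0.0314). The dim probe of Rpl11 differed by 0.09 in HF and by 0.02 in HF-Q against t=0, with limma adjusted p-values of 0.400 and 0.892. Rpl36a, an X-linked protein near the exit site for transfer RNA, had the second lowest p among the members in HF against t=0. Its brightest probe ran from 16.04 to 16.44 in t=0 (median 16.19), from 16.36 to 16.82 in HF (16.47) and from 16.30 to 16.68 in HF-Q (16.39). It rose by 0.29 ± 0.05 in HF (limma adjusted p = 0.000401) and by 0.24 ± 0.06 in HF-Q (adjusted p = 0.00632) against t=0, and its other 2 probes rose by 0.30 and 0.31 in HF. The autosomal relative Rpl36al, outside the name pattern, rose by 0.35, and whether the probes of this pair read each other was not tested.

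Rpl38, named for the largest rise in HF against t=0 and chosen after its values were seen, rose by 0.40 ± 0.09 in HF against t=0 (limma adjusted p = 0.00222), from 17.04 to 17.33 in t=0 to 17.16 to 18.06 in HF. Rpl12, at the base of the stalk, rose by 0.29 ± 0.07 in HF against t=0 (limma adjusted p = 0.00491). It was also among the 6 probes with an unadjusted p under 0.05 in HF-Q against HF, where 11 of 12 HF-Q mice lay under the HF median and the difference of -0.20 ± 0.08 had an adjusted p of 0.219. Other proteins were not called in HF against t=0. Rpl3, which lines the peptidyl transferase centre, differed by 0.02 (limma adjusted p = 0.895). Rpl32 differed by 0.12 (adjusted p = 0.238), and Rpl13a, a component of the interferon-induced GAIT complex, by 0.24 (adjusted p = 0.0542).

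**Figure D2:**
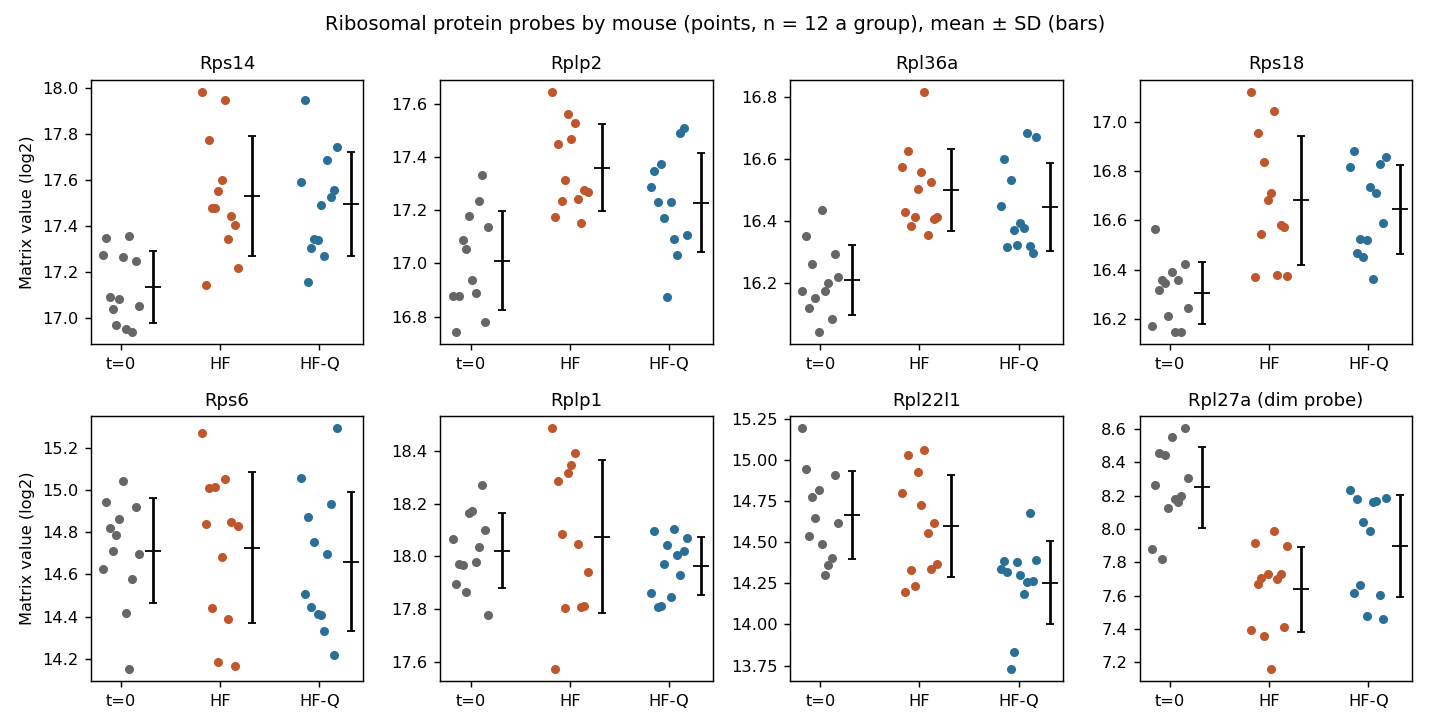
Matrix values (log2) of 8 ribosomal protein probes in each mouse, by group. Points are mice (n = 12 a group) and bars are mean ± SD. Rps14, Rplp2, Rpl36a and Rps18 lie higher in HF than in t=0, Rps6 and Rplp1 overlap between all groups, with the widest spread of Rplp1 in HF, the HF-Q mice lie lowest for Rpl22l1, and the dim probe of Rpl27a is lowest in HF.

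Relatives of core proteins did not move as 1 group. Rpl22l1, the paralog that can replace Rpl22 in the ribosome, had the lowest p of all members in HF-Q against HF. It ran from 14.30 to 15.19 in t=0 (median 14.63), from 14.20 to 15.06 in HF (14.59) and from 13.73 to 14.68 in HF-Q (14.31). In HF-Q, 11 of 12 mice lay under the HF median and 3 under every HF mouse. The difference of -0.34 ± 0.11 had an adjusted p of 0.0973 by limma, or 0.135 without HF-Q replicate 2 and 0.0593 without HF replicate 5. Against t=0, Rpl22l1 fell by 0.41 ± 0.10 in HF-Q (limma adjusted p = 0.00833), while the -0.07 in HF against t=0 had an adjusted p of 0.695. With background correction and loess its difference in HF-Q against HF became 0.15, and the local Cy3 background of its spot on HF-Q replicate 4 read 9657, against 41.5 to 59 on the other arrays. Without that array the corrected difference was -0.34. Rpl22 itself, a binder of several messenger RNAs, rose by 0.19 in HF against t=0 on its bright probe (limma adjusted p = 0.0400) and showed 0.00 on its dimmer one.

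Rps27l, a relative of Rps27 and a known p53 target, ran from 16.14 to 16.83 in t=0, from 16.77 to 17.67 in HF and from 16.66 to 17.23 in HF-Q. It rose by 0.38 ± 0.09 in HF and by 0.32 ± 0.07 in HF-Q against t=0 (limma adjusted p = 0.00404 and 0.00468). Rpl7l1, a nucleolar assembly factor named after Rpl7, rose by 0.27 ± 0.06 in HF against t=0 on its brighter probe (limma adjusted p = 0.00154), where 10 of 12 HF mice lay above all t=0 mice. The same probe was lower in HF-Q than in HF by a difference of -0.19 ± 0.07 (adjusted p = 0.175). Its dimmer probe differed by 0.07 in HF against t=0. Rpl7, a large subunit protein, differed by 0.03, -0.03 and -0.10 on its 3 probes.

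The 3 probes that fell in HF against t=0 were the dimmest probes of Rpl27a, Rps18 and Rps20, whose design accessions are not in the RefSeq table used here. The dim Rpl27a probe (mm8, chr7:109311334-109311393, plus strand) had the lowest p of all members. It ran from 7.82 to 8.60 in t=0 (median 8.23), from 7.16 to 7.99 in HF (7.70) and from 7.46 to 8.24 in HF-Q (8.01), with 9 HF mice under every t=0 mouse. It fell by 0.61 ± 0.10 (limma adjusted p = 7.61e-05), whereas the bright Rpl27a probe differed by -0.08 (adjusted p = 0.330). Between HF-Q and HF it stood 0.26 higher, at an adjusted p of 0.234. The dim Rps20 probe fell by 0.18, and the bright probe of the same gene rose by 0.21 (limma adjusted p = 0.0333 and 0.0405). In HF-Q against HF the dim Rps20 probe stood 0.12 higher (limma adjusted p = 0.235). The 5 probes that fell in HF-Q against t=0 were that of Rpl22l1, both of Rpl27a, the brighter of Rpl21 and the dimmer of Rps4x.

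Of the 80 genes, 36 had several probes. The signs in HF against t=0 differed between probes of 11 of them, namely Rpl13, Rpl21, Rpl22, Rpl31, Rpl7, Rps18, Rps20, Rps24, Rps25, Rps4x and Rpsa, and 13 genes had some but not all of their probes called. In 31 genes every probe rose. Ribosomal protein genes have many processed pseudogenes, and which copies a probe reads was not tested.

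Brightness separated the members from most of the array. Of the 127 probes, 103 lay in the brightest eighth of all probes, 8 in the next and 16 below. Signals this strong were partly taken from a second scan at low laser power, which served 95 members on some array and 31 members in both channels on all arrays. No member was marked saturated.

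Probes of other genes also shifted with brightness. In HF against t=0 their median ran from -0.08 in the dimmest eighth to 0.06 in the brightest, and in HF-Q against HF from 0.11 to -0.04. The members stood above the other bright probes in HF against t=0, with a median of 0.20 over 103 probes against 0.06 over 2620. Of these members 46 rose and 0 fell, while 18.2% of the other bright probes rose and 6.37% fell. Between HF-Q and HF the medians were -0.07 and -0.04, and 0 of the 103 members were called, against 0.992% higher and 1.6% lower among the other bright probes. From t=0 to HF-Q the medians were 0.13 and 0.03, with 23 of the 103 rising and 2 falling, against 10.8% and 8.13% of the others. The 16 members below the brightest 2 eighths had a median of -0.02 in HF against t=0, with 1 rising (Rpl31) and 3 falling. Of the 13 members in the 4 dimmest eighths, 9 carried accessions that are not in the RefSeq table.

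**Figure D3:**
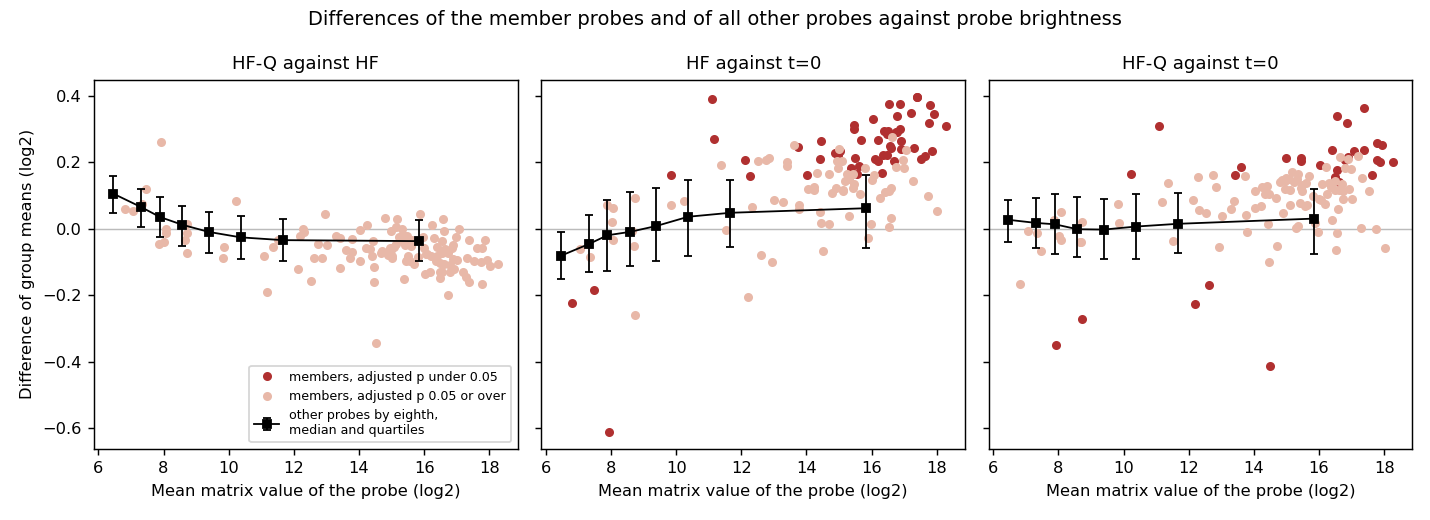
Difference of group means (log2) against the mean matrix value of the probe (log2) for the 127 member probes, in the 3 comparisons. Dark points passed an adjusted p of 0.05 by limma, and black squares with bars are medians and quartiles of the other probes in each eighth of brightness. In HF against t=0 the bright members lie above the other bright probes, whose median is 0.06, and the members at the dim end lie on both sides of 0.

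Across the members, the difference in HF against t=0 had a Spearman rho of 0.56 with brightness, against 0.26 over the 21654 other probes. Between HF-Q and HF the values were -0.39 and -0.40, and from t=0 to HF-Q they were 0.50 and -0.01. These rho values are descriptions across probes of the same arrays. The 31 members read at low power in both channels on all arrays had a median of 0.24 in HF against t=0 and the 191 other probes of that kind had 0.02. The 32 members read at full power on all arrays had a median of 0.07, with 5 rising and 3 falling, where 10.9% of all probes rose and 10.4% fell. The 8 of them in the brightest eighth had a median of 0.14 with 0 called. The 916 other full-power probes of that eighth had 0.05 with 228 called.

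Removing each array's own trend with brightness lowered the shift but kept most of the calls. The median in HF against t=0 became 0.12, with 46 probes called, of which 44 were among the 54. Normexp background correction with loess gave a median of 0.11 with 45 called, again 44 of the 54, and 43 probes passed all 3 ways. Of all probes, 4835 were called with the trend removed and 4632 with loess, against 4645 as reported. Over 25 alternative settings the member median in HF against t=0 lay between 0.07 and 0.29 and was above 0 in all 25, with 8 to 57 members called. Some of the 25 keep the same probes and group means, so their median could not differ. For HF-Q against HF it lay between -0.08 and -0.02, with 0 called in each. For HF-Q against t=0 it lay between 0.02 and 0.23 and the number called ranged from 1 to 46.

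**Figure D4:**
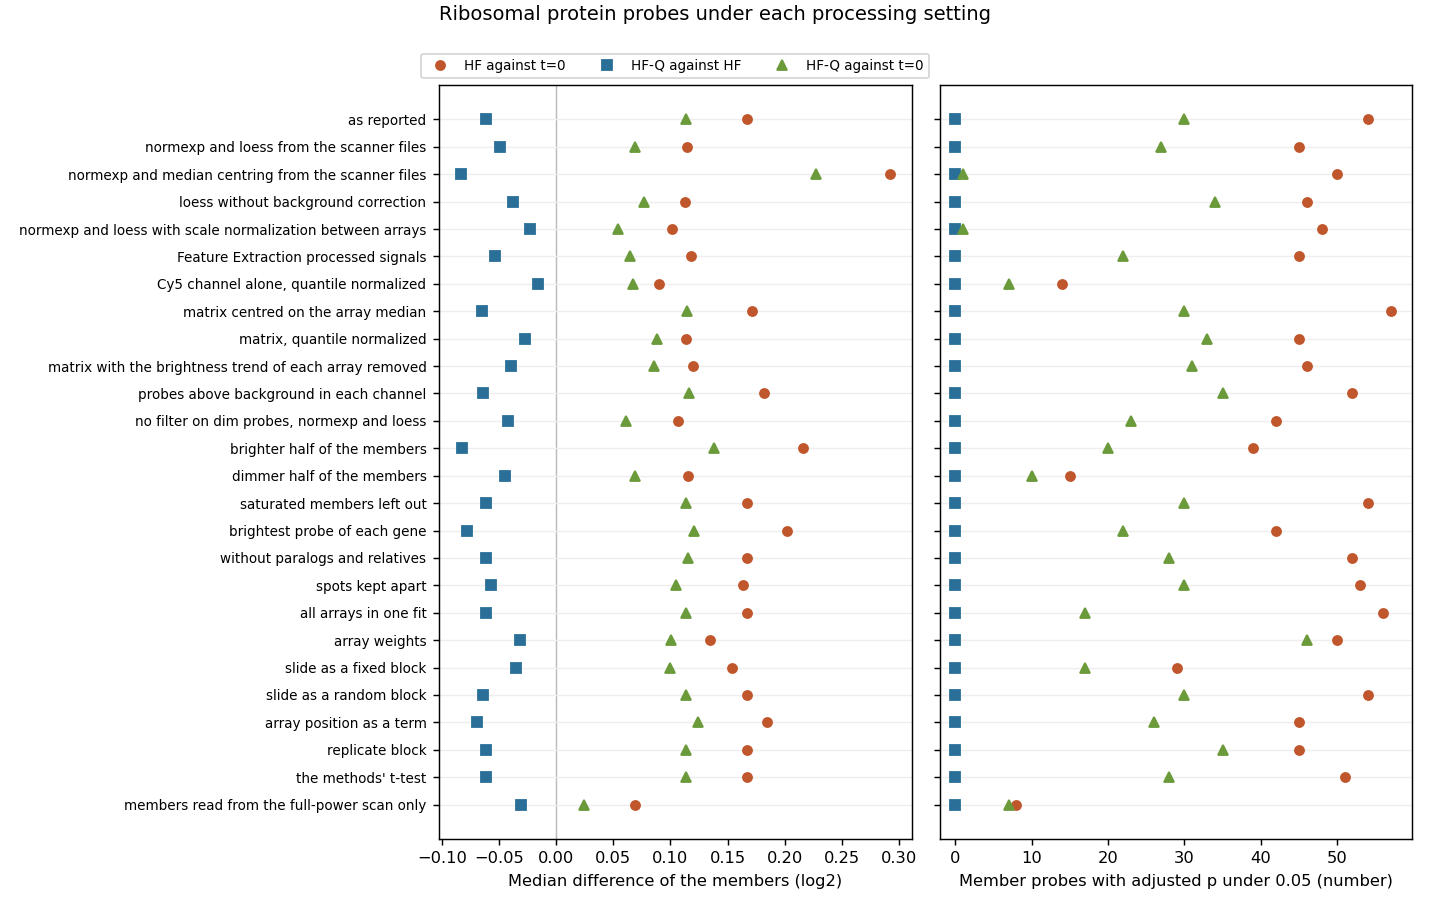
Left, the median difference of the ribosomal protein probes (log2) in each comparison, and right, the number of probes with an adjusted p under 0.05, under the reported setting (top) and 25 others. HF against t=0 stays above 0, between 0.07 and 0.29, and HF-Q against HF has 0 called probes under every setting, while the count in HF-Q against t=0 runs from 1 to 46.

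The bright members were set against the other probes of the brightest eighth on the same array, which are not matched in brightness, since in t=0 the median value was 15.6 over the members and 13.7 over the others. The median deviation of the members from the mean array, minus that of the others, had a lowest, median and highest value of -0.14, -0.07 and 0.00 in t=0, -0.12, 0.01 and 0.33 in HF, and -0.13, 0.01 and 0.21 in HF-Q. No t=0 mouse lay above 0, whereas HF and HF-Q mice lay on both sides of it. Without HF replicate 5 the HF median was -0.01 with the same extremes.

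Each group was spread over the 9 slides of 4 arrays. Within slides, the member median of HF against t=0 was above 0 on 8 of 9 slides (-0.20 to 0.32), and it exceeded that of the other bright probes on 7. For HF-Q against HF it was above 0 on 4 of 9 slides (-0.21 to 0.12), and for HF-Q against t=0 on 6 of 9 (-0.13 to 0.38). With slide as a fixed term, 29 members were called in HF against t=0 at a median of 0.15, and 17 in HF-Q against t=0. Of all 21781 probes, 3758 and 2420 were called in these comparisons with that term.

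The members also varied together from mouse to mouse within groups. Over the 36 arrays, after subtracting group means, pairs of the 103 bright members had a median correlation of 0.70, and pairs of the other 2620 bright probes 0.21. With the brightness trend of each array removed these became 0.46 and 0.00. Without HF-Q replicate 2 they were 0.70 and 0.20. The values describe probes that share arrays and a reference pool, and the part of array quality in them was not tested.

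Genes with a pyrimidine run over the annotated start, printed above for 5 genes, did not stand out. The brightest probes of the 17 genes with the run had a median of 0.21 in HF against t=0 and 9 rose, and those of the 42 genes without it had 0.21 and 26 rose. Rpl38, Rplp2 and Rps18 rose, while Rps6 and the bright probe of Rpl27a, which carry the run as well, differed by 0.01 and -0.08.

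Other genes of the ribosome pathway were read by the brightest probe of each gene. The 4 cytosolic ribosome components outside the name pattern had a median of 0.19 in HF against t=0, and Gnb2l1, the scaffold also called RACK1, and Rpl36al rose, by 0.22 and 0.35 (limma adjusted p = 0.0223 and 0.000566). Of 11 elongation and other translation factors with known TOP tracts, 0 were called in any comparison. Of all probes, 21.3% were called in HF against t=0, 11.9% in HF-Q against t=0 and 2.36% in HF-Q against HF. The median of the 11 was 0.09 in HF against t=0. Of 31 ribosome biogenesis genes 5 rose in HF against t=0 and 0 fell, where 10.9% of all probes rose and 10.4% fell. They were Nop56 and Nop58, core proteins of box C/D particles, Bysl and Wdr12, assembly factors of the small and the large subunit, and Sbds, which frees the large subunit for translation, with differences of 0.30, 0.36, 0.33, 0.15 and 0.22. Of these 31, 0 were called between HF-Q and HF, where 2.36% of all probes were.

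Among 17 growth control genes, Mycn, a Myc family regulator, rose by 0.54 in HF against t=0 and fell by 0.68 in HF-Q against HF (limma adjusted p = 0.0349 and 0.0325). Sesn2, a leucine sensor upstream of mTOR, rose by 0.47 in HF and 0.45 in HF-Q against t=0, and Max, the partner of Myc, rose by 0.25 in HF. Of the 17, 3 were called higher and 0 lower in HF against t=0, where 10.9% of all probes rose and 10.4% fell. Their median was 0.08, or 0.02 with the brightness trend removed. In that comparison 10 lay above 0 and 7 below, the lowest at -0.65. The 75 mitochondrial ribosomal protein genes, encoded in the nucleus for the separate ribosome of mitochondria, had a median of 0.09 in HF against t=0. Of the 75, 8 rose and 2 fell, a share of risers near the 10.9% of all probes. In HF-Q against HF their median was -0.05 with 0 called, where 2.36% of all probes were. With the brightness trend removed their median in HF against t=0 was 0.04, against 0.12 for the cytosolic probes.

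**Figure D5:**
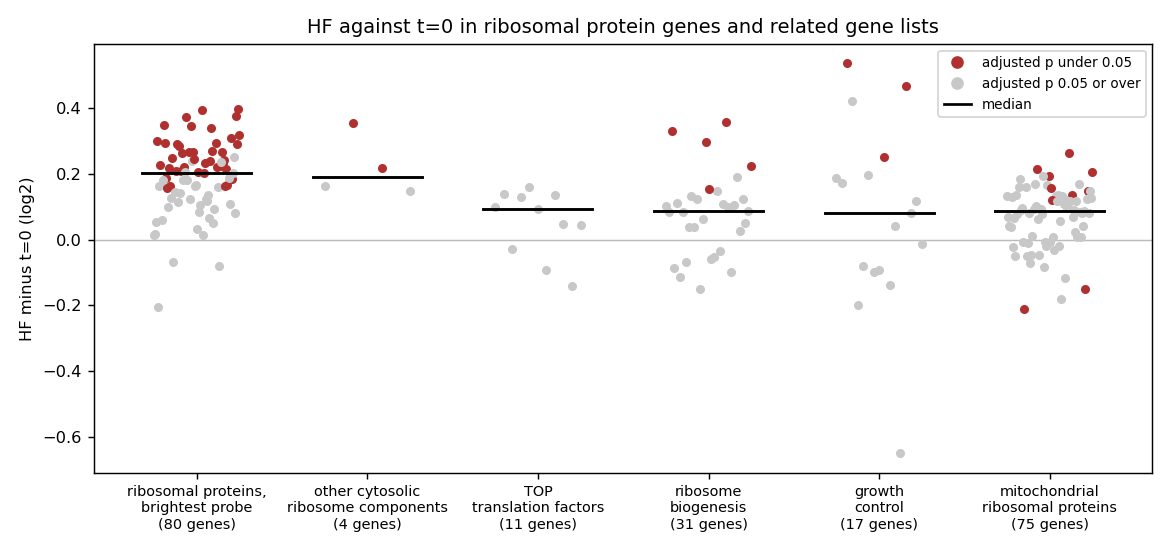
Difference in HF against t=0 (log2) for the brightest probe of each ribosomal protein gene and for 5 related gene lists. Points are genes, dark where the adjusted p by limma was under 0.05, and lines are medians. The cytosolic ribosomal proteins and the 4 other ribosome components have medians of 0.20 and 0.19, and the remaining lists lie between 0.08 and 0.09.

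Some markers of other cells differed in HF against t=0, where 10.9% of all probes were called higher and 10.4% lower. The mean over 9 Kupffer cell markers had a lowest, median and highest value of 10.2, 10.8 and 11.7 in t=0, 10.8, 11.2 and 11.8 in HF, and 10.8, 11.2 and 11.6 in HF-Q. All 9 were higher in HF than in t=0, by 0.11 to 0.82, and 1 of the 9 was called. Cd163, a haemoglobin scavenger receptor, rose by 0.53. The mean over 4 erythroid markers had medians of 12.5, 12.8 and 13.2, and the globin genes Hba-a1 and Hbb-b1 rose by 0.93 and 1.07 in HF, while Slc4a1 and Alas2 differed by 0.14 and -0.14. In HF-Q against t=0, where 6.62% of all probes were called higher and 5.3% lower, 3 of the 4 erythroid markers were called higher, the highest by 1.38. Alas2, a haem synthesis enzyme, fell by 0.26 in that comparison. Of 7 lymphocyte markers, Ms4a1 and Igj rose in HF, 3 others lay above 0 and 2 below it, none of these 5 called. The mean over 4 bile duct markers had medians of 8.02, 8.43 and 8.18, and Krt7, Krt19 and Sox9 rose in HF by 0.29, 0.42 and 0.64. Sox9 fell by 0.60 in HF-Q against HF. All marker values here include HF replicate 5, the array with high pancreas markers, and values without it are not given. Of 4 endothelial markers, Pecam1 fell by 0.34 in HF against t=0 and rose by 0.38 in HF-Q against HF. The other endothelial markers were not called in either comparison. In both, 2 of the 4 lay above 0 and 2 below, with medians of 0.02 and 0.01. Of 5 stellate cell markers 0 were called in HF against t=0, where 21.3% of all probes were. The part of these cells in the shift of the ribosomal protein probes was not tested.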

How the data were processed

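Liver RNA of 36 mice was measured on 2-colour Agilent whole-genome arrays, 4 per slide. Spot and local background intensity values were deposited as Feature Extraction output (version 10.5.1.1 in the submitters' processing notes), in which the brightest spots come from a second, low-power scan. The authors filtered spots on an average signal over 2 times background and normalised Cy5 against Cy3, and the deposited table holds log2 values. Against the deposited intensities this table was the log2 ratio of median signals, without background subtraction, plus a constant per spot and per array (largest difference 4.48e-06 over 837216 values). All arrays had a median of 8.96.

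Spots were joined to gene names by feature number and averaged per probe. Groups came from the labels, with separate mice and 1 array per mouse, and the number of arrays limits the precision. Each comparison was fitted on its 24 arrays over all 21781 probes with limma 3.58.1 (lmFit and eBayes) in R 4.3.3, at a Benjamini-Hochberg adjusted p of 0.05. The fit was tested on simulated data. Brightness is the mean value of a probe over the arrays. The brightness trend of each array was a loess curve with span 0.3 through all its probes.

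Alternatives rebuilt the ratios from the scanner intensities (normexp with offset 50, loess, median centring or scale normalisation), used Cy5 alone, changed filters and members, or added slide, array position, array weights or replicate number (with statmod 1.5.0). Figures and promoter counts were made with Python 3.11.15 and matplotlib 3.10.9. Leaving out each array and keeping only full-power probes were chosen after seeing the data. The members and gene lists were chosen with earlier results of these data known. Named in full were the 5 members with the lowest p in each comparison, members fixed by role, relatives of core proteins, and genes whose probes differed in call or sign. The array annotation places probes on build mm8. Replicate numbers were taken as names only, since same-numbered mice did not deviate together. No column of authors' comparisons was used. Some items are not reported here by name.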

Additional observations from a re-analysis of the deposited data

How the results depend on the processing

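The median difference of the ribosomal protein probes kept its sign in all 25 alternatives of each comparison, and HF-Q against HF had 0 called probes in each. Some of the 25 could not change that median, because they keep the same probes and group means. These were the t-test, the replicate block, all arrays in one fit, and leaving out saturated members, of which there were none. In HF against t=0, where 54 probes were called, the count was 14 with Cy5 alone, 29 with slide as a fixed block, 15 in the dimmer part of the members and 8 among the probes read at full power, the last 2 holding fewer members. Calls over all 21781 probes were 4645 as reported, 3074 with Cy5 alone and 3758 with slide as a fixed block. In HF-Q against t=0, where 30 members were called, their count was 1 with normexp and median centring, 1 with normexp, loess and scale normalisation, 7 with Cy5 alone and 10 in the dimmer part. It was 17 with all arrays in one fit, 17 with slide as a fixed block, 46 with array weights and 7 among the full-power probes. Calls over all probes were 2596 as reported, 396 with median centring, 664 with scale normalisation, 1178 with Cy5 alone and 4220 with array weights. Normexp with median centring also gave a median of 0.23 in HF-Q against t=0 instead of 0.11. The cause was not tested. With that centring the median of all probes in HF against t=0 moved to 0.10 and the calls over all probes split into 3086 higher and 545 lower, against 2384 and 2261 as reported.

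Leaving out each array in turn gave 0 called probes in HF-Q against HF, with a median of -0.08 to -0.03. In HF against t=0 it gave 39 to 65 called probes with a median of 0.14 to 0.19, and in HF-Q against t=0 18 to 41 with a median of 0.09 to 0.13. The lowest count in HF-Q against t=0 was without HF-Q replicate 8.

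The replicate numbers are shared between groups, but mice of the same number did not deviate together, with a correlation over 0.1 in 3, 4 and 4 of 12 pairs in HF-Q against HF, HF against t=0 and HF-Q against t=0. With the replicate block the called probes numbered 0, 45 and 35, at medians of -0.06, 0.17 and 0.11. Probes near background, among them the dim probes of Rpl27a, Rps18 and Rps20, carry the least certain ratios.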
